A study of Mus musculus with 24 samples.

Results

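The proliferation genes described here are 9 genes whose transcripts are made in dividing cells, namely Mki67, Top2a, Cdk1, Ccna2, Ccnb2, Birc5, Tpx2, Prc1 and Cdc45. They were named as a list of known cell-cycle genes, with earlier results of these data known, so the choice was not independent of these samples. All 9 were found among the 16730 genes of the count table, each as 1 gene, and all 9 were among the 15020 genes tested. The tissue was epididymal white adipose tissue (eWAT) from 24 adult male mice, 6 in each of 4 groups, and each library came from 1 mouse. The groups were Lama4 fl/fl mice fed chow, Lama4 AKO mice fed chow, Lama4 fl/fl mice fed a high-fat diet (HFD, 45% fat) and Lama4 AKO mice fed the HFD, with 20 weeks on the diet in every group. Lama4 encodes the laminin α4 chain of the basement membrane, Lama4 fl/fl mice carry loxP sites around exon 3, and Lama4 AKO mice carry the same floxed alleles together with Cre driven by the adiponectin promoter, so that only mature adipocytes are meant to lose the gene. Whole fat pads were used, and these also hold macrophages, progenitors, vessels and other cells in which the Cre is not active.

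Proliferation genes are transcribed in waves during the cell cycle and are nearly silent in resting cells, so in a whole tissue their level follows the number of cycling cells and the RNA each of them holds. In lean fat few cells divide, since mature adipocytes do not, whereas progenitors, endothelial cells and tissue macrophages can. In obese mice, macrophages of eWAT are known to divide in place, above all around dying adipocytes. In bulk tissue such as this, fewer cycling cells and less of the RNA per cell cannot be told apart, nor can the dividing cell type be read from these genes.

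Reads were taken near the 3′ end of transcripts (QuantSeq), and library totals lay between 5579590 and 18764516 counts, so that a count of 0 would allow up to 3 counts, or 0.171 to 0.512 CPM (counts scaled to library size) depending on the library. No member was at 0 in any library, and the lowest value was 7 counts, for Ccna2 in chow-fed Lama4 fl/fl mouse 1. This library stood apart: it lay at -91.8 on the first principal component, which held 45.8% of the variance, against -22.1 to 46.8 for the other chow-fed Lama4 fl/fl libraries. It had the lowest value of all 24 libraries for each of the 9 members. A further 5 libraries (chow-fed Lama4 fl/fl mouse 3, chow-fed Lama4 AKO mouse 5 and HFD-fed Lama4 fl/fl mice 3, 4 and 6) are those that an earlier analysis of these data inferred to have been left out by the study, which does not name them. They were kept here, and results are also given without them. Adipocyte markers such as Adipoq and Plin1 were present in every library, at a summed 8881 to 47743 CPM over 8 genes. Lama4 itself (ENSMUSG00000019846) was at 41.2, 91.7 and 196 CPM (lowest, median, highest) in chow-fed Lama4 fl/fl mice, 64.2, 113 and 133 CPM in the chow-fed libraries labelled Lama4 AKO, 32.4, 78.7 and 135 CPM in HFD-fed Lama4 fl/fl mice and 36.4, 44.3 and 92.5 CPM in the HFD-fed libraries labelled Lama4 AKO. On chow, the estimate was on the higher side in the libraries labelled AKO (log2 fold change 0.11, SE 0.34, edgeR adjusted p = 0.980). On the HFD, it was on the lower side (log2 fold change -0.69, SE 0.35, edgeR adjusted p = 0.347). The paper reports a partial knockdown of Lama4 in eWAT of chow-fed AKO mice by quantitative PCR. The reads here come from the 3′ end and not from exon 3, so they do not read the deletion itself. Why Lama4 was not lower on chow was not tested, and AKO stands below for the label the libraries carry.

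Mki67 (ENSMUSG00000031004, GRCm38 chromosome 7: 135689784 to 135716361) encodes Ki-67, a protein that coats mitotic chromosomes and is the usual histological marker of cycling cells. It was at 4.84, 34.3 and 43.3 CPM (lowest, median, highest) in chow-fed Lama4 fl/fl mice, 13.9, 29.1 and 38.5 CPM in chow-fed Lama4 AKO mice, 13.2, 21.4 and 35.3 CPM in HFD-fed Lama4 fl/fl mice, and 13.9, 18.3 and 20.9 CPM in HFD-fed Lama4 AKO mice. All 4 groups overlapped, and the median was lower on the HFD in both genotypes.

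Top2a (chromosome 11: 98992943 to 99024189) encodes DNA topoisomerase II alpha, which untangles replicated chromosomes. Its lowest, median and highest levels were 11.96, 80.6 and 90.02 CPM in chow-fed Lama4 fl/fl mice, 36.8, 79.6 and 91.6 CPM in chow-fed Lama4 AKO mice, 31.0, 77.5 and 117 CPM in HFD-fed Lama4 fl/fl mice and 58.2, 60.5 and 77.0 CPM in HFD-fed Lama4 AKO mice. The HFD-fed Lama4 AKO libraries lay within the range of each other group.

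The cyclins and their kinase form the next group. Cdk1 (chromosome 10: 69335146 to 69352938), the kinase that drives entry into mitosis, had group medians of 37.9 CPM in chow-fed Lama4 fl/fl, 26.7 CPM in chow-fed Lama4 AKO, 26.3 CPM in HFD-fed Lama4 fl/fl and 32.2 CPM in HFD-fed Lama4 AKO mice, with libraries from 5.98 to 47.2 CPM. Ccna2 (chromosome 3: 36564865 to 36572150) encodes cyclin A2, the partner of the S and G2 phase kinases, and its group medians were 12.3, 8.86, 9.91 and 15.6 CPM in the same order, with libraries from 0.722 to 18.2 CPM. Ccnb2 (chromosome 9: 70407692 to 70421547) encodes cyclin B2, a mitotic partner of the Cdk1 kinase. Ccnb2 was at 1.65, 14.2 and 15.9 CPM (lowest, median, highest) in chow-fed Lama4 fl/fl mice, 3.67, 10.02 and 19.6 CPM in chow-fed Lama4 AKO mice, 4.34, 11.4 and 14.8 CPM in HFD-fed Lama4 fl/fl mice and 15.4, 18.2 and 19.3 CPM in HFD-fed Lama4 AKO mice. Every HFD-fed Lama4 AKO library was therefore above every HFD-fed Lama4 fl/fl library for Ccnb2, whereas chow-fed Lama4 AKO mouse 5, at 19.6 CPM, lay above all of them.

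The genes of the spindle and of cell division were Birc5, Tpx2 and Prc1. Birc5 (chromosome 11: 117849251 to 117855743) encodes survivin, a subunit of the chromosomal passenger complex, and its group medians were 51.1 CPM in chow-fed Lama4 fl/fl, 37.7 CPM in chow-fed Lama4 AKO, 46.1 CPM in HFD-fed Lama4 fl/fl and 51.0 CPM in HFD-fed Lama4 AKO mice. Tpx2 (chromosome 2: 152847964 to 152895321), which activates the Aurora A kinase on the spindle, had medians of 22.7, 20.5, 18.6 and 22.9 CPM in that order. Prc1 (chromosome 7: 80294450 to 80316259), which bundles microtubules of the central spindle, had medians of 26.3, 19.6, 13.6 and 26.6 CPM. For all 3 genes the groups overlapped.

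Cdc45 (chromosome 16: 18780447 to 18811987) is the only member that acts in DNA replication itself, as part of the helicase that opens the double strand. Its libraries lay within a narrow range, from 2.68 to 5.87 CPM, and its group medians were 5.34, 4.76, 4.26 and 4.44 CPM. The counts behind it were also few, between 26 and 98 a library.

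The spread within groups was wide in some groups and narrow in others. The SD of log2 CPM among chow-fed Lama4 fl/fl mice was 1.11 to 1.62 for the 8 members other than Cdc45 and 0.43 for Cdc45. Among HFD-fed Lama4 AKO mice it was 0.14 to 0.29 for all 9 members. The highest library exceeded the lowest by 23.8 times for Ccna2 in chow-fed Lama4 fl/fl mice and by 1.61 times in HFD-fed Lama4 AKO mice.

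**Figure D1:**
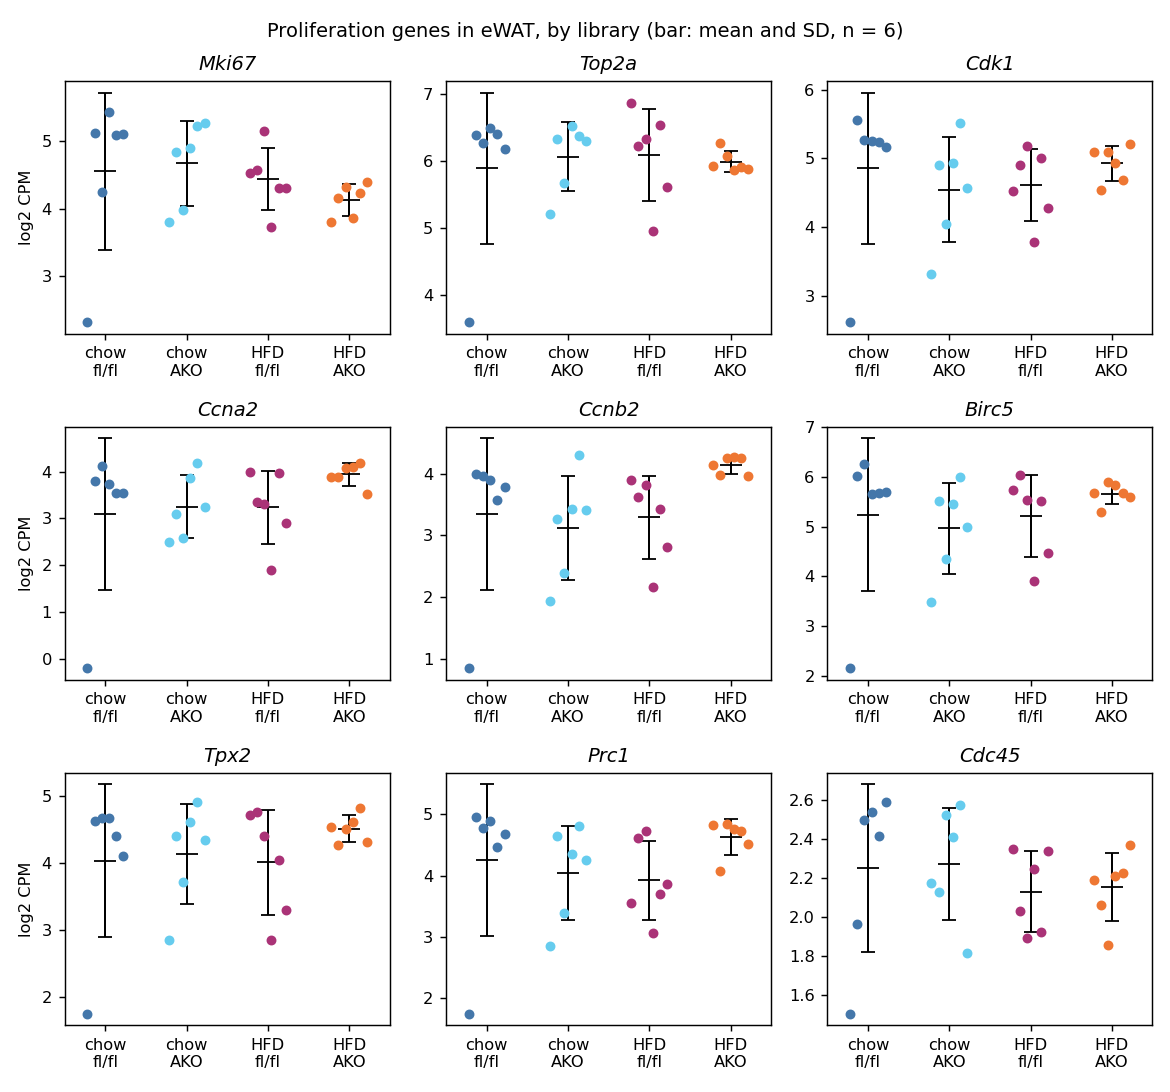
Levels of the 9 proliferation genes in eWAT, on a log2 CPM axis, with 1 point per library in 4 groups of 6 mice and bars for the mean and SD. Chow-fed Lama4 fl/fl mouse 1 is the lowest point of every panel, and the HFD-fed Lama4 AKO points lie close together.

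The first question was whether the HFD changes these genes in Lama4 fl/fl mice. Of the members, 0 of 9 were called (a change of 1.5-fold or more, a nominal p no higher than 0.001, and an average of 2 CPM or more in 1 of the groups) by edgeR's quasi-likelihood test, 0 of 9 had an unadjusted p under 0.05, and limma-voom and DESeq2 also called 0. Of all genes tested, 0.173% were called and 9.01% had an unadjusted p under 0.05. No member was free of overlap between these groups, against 0.213% of all genes. Top2a was higher by 0.08 on the log2 scale and the other 8 members lower, with a median of -0.22 against -0.01 over all genes tested. The most negative estimate was that of Prc1, at a log2 fold change of -0.50 (SE 0.38), a fold change of 0.71 with a 95% interval of 0.41 to 1.21 (adjusted p = 0.702). For Mki67 the fold change was 0.79 (95% interval 0.49 to 1.28). These signs rested on few libraries. Without chow-fed Lama4 fl/fl mouse 1 all 9 were lower and 3 (Mki67, Cdk1 and Prc1) had an unadjusted p under 0.05, against 11.2% of all genes. With single libraries left out the median ran from -0.45 (without that library) to -0.09 (without HFD-fed Lama4 fl/fl mouse 4). Without the 5 libraries 4 members changed sign and the median was 0.11.

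In Lama4 AKO mice, 0 of 9 members were called between HFD and chow by edgeR, limma-voom or DESeq2, while 4.12% of all genes tested were. One member, Ccnb2, had an unadjusted p under 0.05 with each of these 3 tools, a share of 1 in 9 beside the 39.8% of all genes that had one by edgeR. No member was free of overlap between these groups, against 6.86% of all genes. Ccnb2 was 1.82-fold higher on the HFD (95% interval 1.04 to 3.17), a log2 fold change of 0.86 (SE 0.39, edgeR adjusted p = 0.102). Without the 5 libraries its log2 fold change was 1.16 (adjusted p = 0.0168), and its nominal p still missed the criterion of 0.001. Mki67 had an estimate on the other side, at 0.65-fold (95% interval 0.40 to 1.06, adjusted p = 0.170). The fit pools the spread over all 4 groups, so libraries outside this comparison bear on its p-values. Without chow-fed Lama4 fl/fl mouse 1 the unadjusted p of Mki67 by edgeR was 0.0195, in place of 0.0791. The 9 members thus did not share a sign: Mki67, Top2a and Cdc45 were lower and the other 6 higher, with a median log2 fold change of 0.26. This median was 0.08 without chow-fed Lama4 AKO mouse 1, 0.16 without mouse 3 and 0.47 without mouse 5 of that group. With voom and sample quality weights Ccnb2 was called (log2 fold change 1.36, adjusted p = 0.000664), in a fit that called 23.9% of all genes. No other alternative called a member, while the share of all genes called was 15.7% without the 5 libraries.

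Between genotypes on the HFD, 0 of 9 members were called by edgeR, with 0 at an unadjusted p under 0.05, against 0.173% of all genes called and 14.8% at an unadjusted p under 0.05. limma-voom called 0, with 1 at an unadjusted p under 0.05, and DESeq2 called 0, with 0. Chow-fed Lama4 fl/fl mouse 1 is outside this comparison but adds to the pooled spread. Without it the unadjusted p by edgeR was 0.0185 for Ccnb2 and 0.0428 for Prc1, and neither was called. The share of all genes under 0.05 in that fit is not given here. In the libraries labelled AKO, 7 members were higher and 2, Mki67 and Top2a, lower, with a median log2 difference of 0.30. Without the 5 libraries 5 were higher and the median was 0.05, and Birc5 and Tpx2 were then on the lower side. With single libraries left out the median was 0.13 without HFD-fed Lama4 fl/fl mouse 4, 0.19 without mouse 6 and 0.48 without mouse 2 of that group. In this comparison 9 of 10 macrophage markers were higher, with a median of 0.27. By edgeR 0 of them were called and 1 had an unadjusted p under 0.05. Their summed CPM was 1706 and 2113 in HFD-fed Lama4 fl/fl mice 4 and 6. It was 4743 to 7934 in the other HFD-fed Lama4 fl/fl mice and 5106 to 7087 in HFD-fed Lama4 AKO mice. All 8 adipocyte markers were lower, with a median of -0.87, 0 called and 4 at an unadjusted p under 0.05 by edgeR. The part of both lists in the members' values was not tested. The highest estimate was that of Ccnb2, whose 6 HFD-fed Lama4 AKO libraries (15.4 to 19.3 CPM) did not overlap the 6 HFD-fed Lama4 fl/fl libraries (4.34 to 14.8 CPM). Of all genes tested, 0.533% did not overlap between these groups, and Ccnb2 was the 1 member that did not. The fold change of Ccnb2 was 1.68 (95% interval 0.97 to 2.92, adjusted p = 0.354). Without the 5 libraries, which include 3 of the HFD-fed Lama4 fl/fl mice, its log2 difference was 0.49 in place of 0.75 (adjusted p = 0.743). Prc1 was 1.53-fold higher (95% interval 0.89 to 2.63, adjusted p = 0.426).

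On chow, 0 of 9 members were called between genotypes by edgeR, limma-voom or DESeq2, with 0 at an unadjusted p under 0.05 for each, and of all genes tested 0.113% were called by edgeR and 5.85% had an unadjusted p under 0.05. No member was free of overlap, against 0.26% of all genes. All 9 members were lower in the libraries labelled AKO by the fitted values, with a median log2 difference of -0.16 against 0.00 over all genes. The range was from 0.00 for Top2a to -0.47 for Birc5, whose fold change was 0.72 (95% interval 0.38 to 1.35, adjusted p = 0.952). The intervals of all members but Cdc45 included a fall of 1.5-fold, and that of Cdc45 ran from 0.76 to 1.29. With single libraries left out the median ran from -0.40 (without chow-fed Lama4 fl/fl mouse 1) to -0.03 (without chow-fed Lama4 AKO mouse 1), and in the former fit 2 members had an unadjusted p under 0.05, against 11.4% of all genes. With voom and sample quality weights the median was -0.61 and 5 members had an unadjusted p under 0.05, against 25.9% of all genes. Of the 10 macrophage markers 9 were also lower in the libraries labelled AKO on chow, with a median of -0.46. So were 8 of 9 lipid-associated macrophage markers, with a median of -0.63. In each of these 2 lists 0 were called and 0 had an unadjusted p under 0.05 by edgeR. Their part in the members' values was not tested. The signs near 0 depended on the fit: 2 members were on the higher side with limma-voom and with the replicate number as a block, 1 with DESeq2, and up to 4 when a single library was left out.

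**Figure D2:**
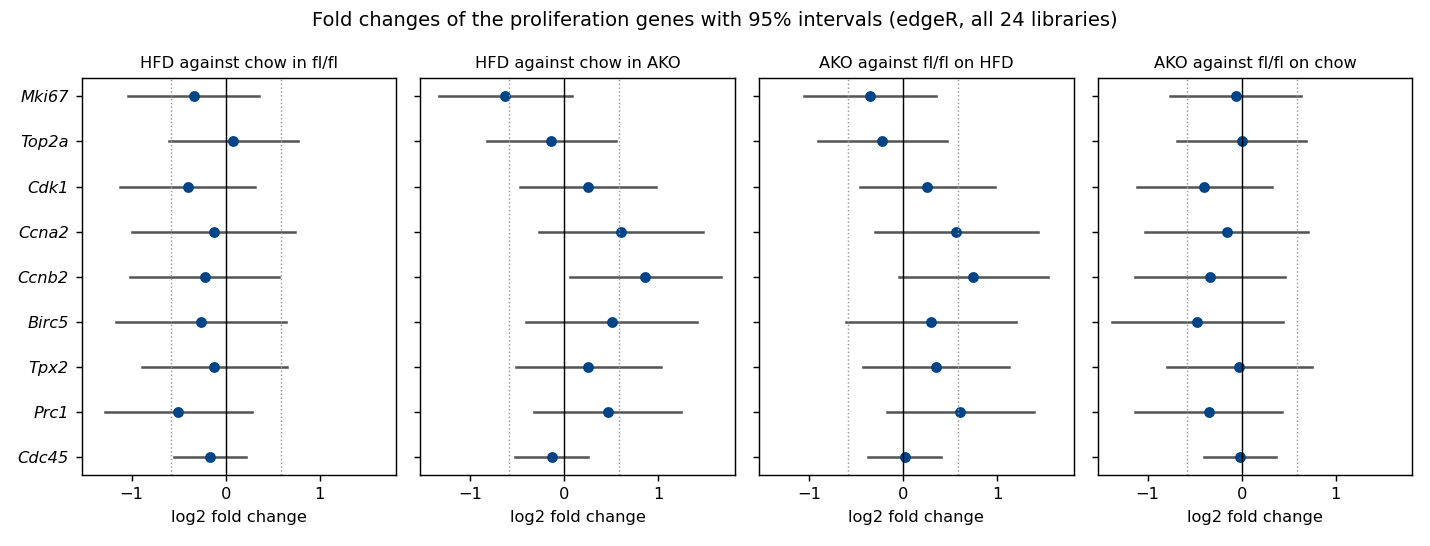
Log2 fold changes (x axis) of the 9 proliferation genes in the 4 comparisons of diet or genotype, with 95% intervals as horizontal lines, a solid line at 0 and dotted lines at a fold change of 1.5. The interval excludes 0 only for Ccnb2 in HFD-fed against chow-fed Lama4 AKO mice, where it runs from 0.06 to 1.67.

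Whether the diet acted differently in the 2 genotypes was tested as an interaction. Again 0 of 9 members were called, with 0 at an unadjusted p under 0.05 by edgeR or DESeq2 and 1 by limma-voom, against 0.386% of all genes called and 15.6% at an unadjusted p under 0.05 by edgeR. Ccnb2 had the highest estimate, a log2 difference of diet effects of 1.08 (SE 0.55, 95% interval -0.04 to 2.21, adjusted p = 0.335), followed by Prc1 at 0.96 (SE 0.54, adjusted p = 0.366). With single libraries left out the estimate for Ccnb2 ran from 0.91 to 1.35. Without chow-fed Lama4 fl/fl mouse 1 it was 1.31 (adjusted p = 0.0963), and 5 members had an unadjusted p under 0.05, against 24.4% of all genes. With voom and sample quality weights Ccnb2 was called, at 1.81 (adjusted p = 0.00781), in a fit that called 9.04% of all genes. The median over the 9 members was 0.66. In the interaction all 10 macrophage markers were on the higher side, with a median of 0.68, and all 8 adipocyte markers on the lower side, with a median of -1.04. In both lists 0 were called by edgeR, with 0 macrophage and 2 adipocyte markers at an unadjusted p under 0.05. Their part in the members' values was not tested. Averaged over genotypes, the diet called 0 of 9 members by edgeR, limma-voom and DESeq2, with 0 at an unadjusted p under 0.05 for each, against 2.25% of all genes called and 35.5% at an unadjusted p under 0.05 by edgeR. Mki67 came nearest, at 0.71-fold on the HFD (95% interval 0.51 to 1.01, adjusted p = 0.149). Without chow-fed Lama4 fl/fl mouse 1 its log2 fold change was -0.59 (adjusted p = 0.0499), and its nominal p missed the criterion.

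The levels of the members were also compared from mouse to mouse within groups. After group means had been subtracted, the 28 pairs among the 8 members other than Cdc45 had Pearson correlations of 0.81 to 0.97 over the 24 libraries (median 0.92) and Spearman correlations of 0.47 to 0.93 (median 0.78). The tightest pair was Birc5 with Tpx2, at 0.97. Without chow-fed Lama4 fl/fl mouse 1 the same pairs had Pearson correlations of 0.48 to 0.95 (median 0.82). They were 0.51 to 0.94 without the 2 libraries farthest from the median of the pair's gene that comes first in the list of members. Mki67 with Ccna2 was the loosest of them in both sets. Cdc45 stood outside: its 8 pairs had Pearson correlations of 0.37 to 0.51, and -0.23 to -0.03 without chow-fed Lama4 fl/fl mouse 1. The points share library, depth and scaling, and these correlations are descriptions. Cdc45 rests on few counts, and the part of counting error in its correlations was not tested.

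**Figure D3:**
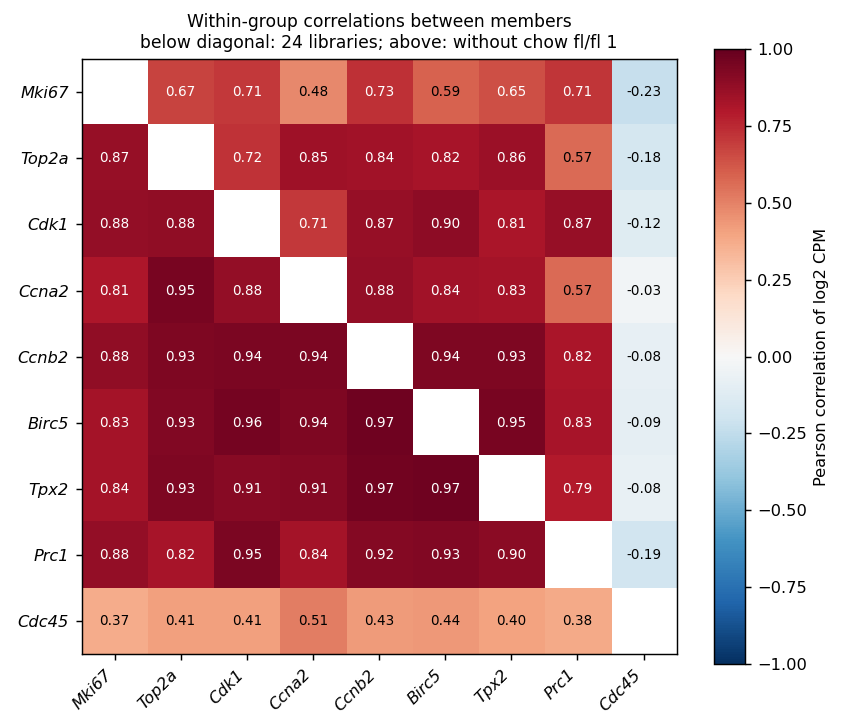
Pearson correlations of log2 CPM between members after group means were subtracted, over 24 libraries below the diagonal and without chow-fed Lama4 fl/fl mouse 1 above it. The row and column of Cdc45 are pale, with values of 0.37 to 0.51 below and -0.23 to -0.03 above, and the remaining pairs lie at 0.48 or higher on both sides.

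Genes that are expressed late in the cell cycle are known to carry CCAAT boxes, bound by the NF-Y factor, and the element CHR (cell cycle genes homology region), bound by the MuvB complexes DREAM and MMB-FOXM1. Given these correlations, the promoters of the members were read from RefSeq (GRCm38.p6), which gave a window of 250 bases before to 50 after the start for 7 of the 9 members (Mki67, Top2a, Cdk1, Ccnb2, Birc5, Prc1 and Cdc45). Ccna2 and Tpx2 had no entry in the table. Of the 7, 6 held CCAAT and 6 held TTTGAA on either strand, and the same 6, all but Birc5, held both. Of all 32851 windows, 37.4% held CCAAT, 17.9% held TTTGAA and 6.95% held both. These are shares of windows, whereas the members were counted by gene, and Prc1 had 2 windows, each with both motifs. The 6 stretches below run from 200 bases before to 20 after the start in the direction of transcription, with CCAAT and TTTGAA on either strand in capitals. They show 5 members that held both motifs more than once in the whole window, and Birc5, which held neither. For Cdc45, 1 TTTGAA begins at -240, outside the stretch shown. Only exact matches were sought, and the part of these motifs in the correlations between members was not tested.
Mki67: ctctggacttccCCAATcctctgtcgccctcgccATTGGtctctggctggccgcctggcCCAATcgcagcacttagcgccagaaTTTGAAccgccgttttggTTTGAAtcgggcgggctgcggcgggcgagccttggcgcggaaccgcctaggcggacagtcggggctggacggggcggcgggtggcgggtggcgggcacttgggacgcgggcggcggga
Top2a: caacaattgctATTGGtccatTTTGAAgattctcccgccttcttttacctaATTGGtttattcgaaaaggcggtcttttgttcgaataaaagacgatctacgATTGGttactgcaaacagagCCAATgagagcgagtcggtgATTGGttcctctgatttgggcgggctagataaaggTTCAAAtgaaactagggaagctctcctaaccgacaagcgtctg
Cdk1: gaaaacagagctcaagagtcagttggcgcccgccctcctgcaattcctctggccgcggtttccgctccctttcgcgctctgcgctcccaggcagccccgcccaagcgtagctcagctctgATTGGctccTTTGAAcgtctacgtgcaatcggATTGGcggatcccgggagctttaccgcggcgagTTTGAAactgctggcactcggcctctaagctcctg
Ccnb2: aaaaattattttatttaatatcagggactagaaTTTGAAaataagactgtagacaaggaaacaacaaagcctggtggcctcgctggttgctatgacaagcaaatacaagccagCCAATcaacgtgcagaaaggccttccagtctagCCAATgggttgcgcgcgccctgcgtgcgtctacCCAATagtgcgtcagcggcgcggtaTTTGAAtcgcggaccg
Birc5: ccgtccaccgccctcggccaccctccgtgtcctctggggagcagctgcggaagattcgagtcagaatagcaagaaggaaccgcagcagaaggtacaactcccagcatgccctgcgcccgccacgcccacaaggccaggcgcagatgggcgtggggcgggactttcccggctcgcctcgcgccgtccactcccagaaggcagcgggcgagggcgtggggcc
Cdc45: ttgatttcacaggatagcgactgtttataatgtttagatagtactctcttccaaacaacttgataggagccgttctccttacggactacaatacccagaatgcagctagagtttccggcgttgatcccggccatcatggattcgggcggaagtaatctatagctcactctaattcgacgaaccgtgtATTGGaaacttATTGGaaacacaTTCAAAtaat
Mki67 lies on the reverse strand (chr7:135716360-135716579), as do Top2a (chr11:99024170-99024389), Cdk1 (chr10:69352893-69353112), Ccnb2 (chr9:70421535-70421754) and Cdc45 (chr16:18811953-18812172), and Birc5 lies on the forward strand (chr11:117849037-117849256). In Ccnb2 the CCAAT boxes begin at positions -87, -54 and -21 from the start and TTTGAA at -167 and 5. In Cdk1 they begin at -208, -80 and -48, the first of them outside the stretch shown, and TTTGAA begins at -71 and -15. Top2a held 6 CCAAT boxes in the whole window, of which 5 are in the stretch shown. No 2 of these matches overlapped.

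The 10 genes outside the members that varied most like them, by the median Pearson correlation with the 9 members over 24 libraries after group means were subtracted, were Clec4a2 (0.95), Cdca8 (0.94), Dhrs9 (0.94), Gm5150 (0.94), Pclaf (0.94), Ska1 (0.93), Gmnn (0.93), Tk1 (0.93), Foxm1 (0.93) and Tnip3 (0.93). The median over 15011 other genes tested was -0.01 and the 90th percentile 0.66. Cdca8 is a subunit of the complex that holds survivin, Ska1 binds kinetochores, Gmnn and Pclaf act in replication, Tk1 makes thymidine nucleotides and Foxm1 is a transcription factor of late cell-cycle genes. Clec4a2, by contrast, encodes a lectin of myeloid cells, and no cell-cycle role is given here for Dhrs9, Gm5150 and Tnip3. Clec4a2 was at 14.9 CPM in chow-fed Lama4 fl/fl mouse 1 and at a median of 164 CPM over all libraries. Only 3 of the 10 remained among the 10 most alike when that library was left out, namely Clec4a2 (rank 4), Tk1 (5) and Gm5150 (7). Pclaf was then at rank 12, Dhrs9 at 16, Cdca8 at 17, Gmnn at 38, Foxm1 at 42, Tnip3 at 51 and Ska1 at 111. The order of these genes thus rested in part on 1 library.

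Levels of the members were set beside those of macrophage markers. The 10 markers (Adgre1, Cd68, Csf1r, Mrc1, Itgam, C1qa, C1qb, C1qc, Fcgr1 and Mertk) summed to 1303 to 6990 CPM in chow-fed Lama4 fl/fl, 1570 to 5761 CPM in chow-fed Lama4 AKO, 1706 to 7934 CPM in HFD-fed Lama4 fl/fl and 5106 to 7087 CPM in HFD-fed Lama4 AKO mice, and the 9 members to 38.6 to 319, 99.2 to 330, 101 to 289 and 227 to 271 CPM in the same order. Over the 24 libraries, with group means subtracted, the mean log2 CPM of the 8 members other than Cdc45 and the log2 marker sum had a Pearson correlation of 0.87 and a Spearman correlation of 0.74, and a Pearson correlation of 0.86 without chow-fed Lama4 fl/fl mouse 1. The 5 libraries with the lowest sums of the members, at 38.6 to 153 CPM (chow-fed Lama4 fl/fl mouse 1, chow-fed Lama4 AKO mice 1 and 3, and HFD-fed Lama4 fl/fl mice 4 and 6) were also the 5 with the lowest macrophage marker sums, at 1303 to 2113 CPM, and they were 5 of the 6 with the highest adipocyte marker sums, at 35081 to 47743 CPM. The part of cell composition in the members' levels was not tested.

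Over the same 24 libraries, the Pearson correlations of the other marker lists with the members were 0.64 for mast cells, 0.55 for lipid-associated macrophages (0.35 without chow-fed Lama4 fl/fl mouse 1), 0.46 for progenitors, 0.44 for T and NK cells, 0.31 for epididymis, 0.14 for B and plasma cells and -0.10 for germ cells. They were negative for mesothelium (-0.47), endothelium (-0.56), adipocytes (-0.59) and red cells (-0.60). The germ cell list held 1 gene in the table, Sycp3, and the epididymis list 3 genes, none of which passed the filter. Between diets in Lama4 AKO mice, where 4.12% of all genes tested were called, all 6 mast cell markers were higher on the HFD, with 5 called, all 10 macrophage markers were higher with 0 called by edgeR and 3 at an unadjusted p under 0.05 (39.8% of all genes), and all 8 adipocyte markers were lower with 1 called. Of 9 lipid-associated macrophage markers 8 were higher, with 0 called, 8 at an unadjusted p under 0.05 and a median log2 fold change of 1.59, and all 7 endothelial markers were lower, with 0 called, 7 at an unadjusted p under 0.05 and a median of -0.67. Their part in the values of Ccnb2 and Mki67 in that comparison was not tested.

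As a percent of the macrophage marker sum, the members' sum was 5.23% ± 1.59 in chow-fed Lama4 fl/fl mice (mean ± SD, n = 6), 6.78% ± 1.71 in chow-fed Lama4 AKO mice, 5.08% ± 1.46 in HFD-fed Lama4 fl/fl mice and 4.003% ± 0.349 in HFD-fed Lama4 AKO mice. The range was 3.72% to 4.68% in HFD-fed Lama4 AKO mice, and 5 of the 6 chow-fed Lama4 AKO libraries had 5.76% to 8.58%, with mouse 6 at 4.08%. The ranges of these groups overlapped through that library.

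**Figure D4:**
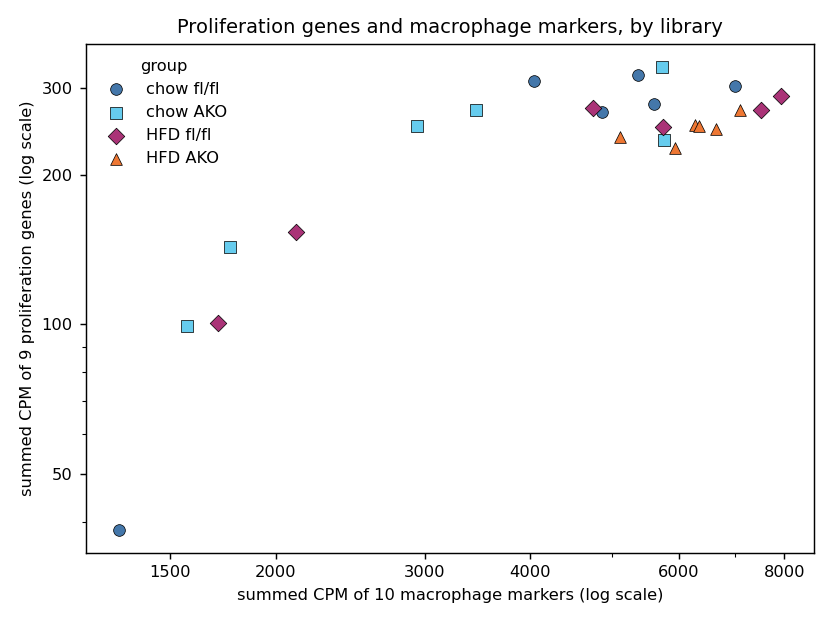
Summed CPM of the 9 proliferation genes (y axis, log scale) against summed CPM of 10 macrophage markers (x axis, log scale), 1 point per library, with a symbol for each of the 4 groups. The 5 libraries with 38.6 to 153 CPM of proliferation genes lie at the left, at 1303 to 2113 CPM of markers, and the remaining 19 lie between 227 and 330 CPM.

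Ratios between members were also taken within each library. Of the 36 ratios between 2 members, 7 did not overlap between HFD-fed and chow-fed Lama4 AKO mice, and 6 of these 7 involved Mki67. Over the 135099 ratios of a member to any other gene tested, 2.77% did not overlap in this comparison. The ratios share genes and so are not independent of each other. Between diets in Lama4 fl/fl mice 0 of 36 ratios were free of overlap (0.02% of all such ratios), between genotypes on the HFD 3 of 36 (1.12%), and between genotypes on chow 0 of 36 (0.0244%). These shares are not a like background. The other genes had a median correlation of -0.01 with the members within groups, against 0.92 for the 28 pairs of members without Cdc45. A ratio of 2 genes that vary together spreads less within a group, so no excess is read from these counts. The ratios named next were picked after their values were seen and carry no test.

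The ratio of Mki67 to Ccnb2 in CPM was 1.90 to 3.78 in chow-fed Lama4 AKO mice (median 3.03) and 0.75 to 1.36 in HFD-fed Lama4 AKO mice (median 1.02). In Lama4 fl/fl mice it was 1.22 to 2.94 on chow (median 2.72) and 1.56 to 3.04 on the HFD (median 2.23). The HFD-fed Lama4 AKO mice were therefore below every HFD-fed Lama4 fl/fl mouse and every chow-fed Lama4 AKO mouse, and overlapped only chow-fed Lama4 fl/fl mouse 3, at 1.22. The ratio of Mki67 to Birc5 was 0.586 to 1.25 in chow-fed and 0.256 to 0.458 in HFD-fed Lama4 AKO mice. In Lama4 fl/fl mice it was 0.247 to 1.12 on chow and 0.360 to 0.889 on the HFD, and both overlapped the HFD-fed Lama4 AKO mice. The ratio of Top2a to Ccnb2 was 5.78 to 8.72 in HFD-fed Lama4 fl/fl mice and 3.02 to 4.91 in HFD-fed Lama4 AKO mice, again without overlap. In chow-fed Lama4 AKO mice it was 4.19 to 10.03, which overlapped the HFD-fed Lama4 AKO mice. Reads of 3′ libraries count transcript ends, so a ratio of 2 genes is compared between groups here and not read as a ratio of molecules.

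**Figure D5:**
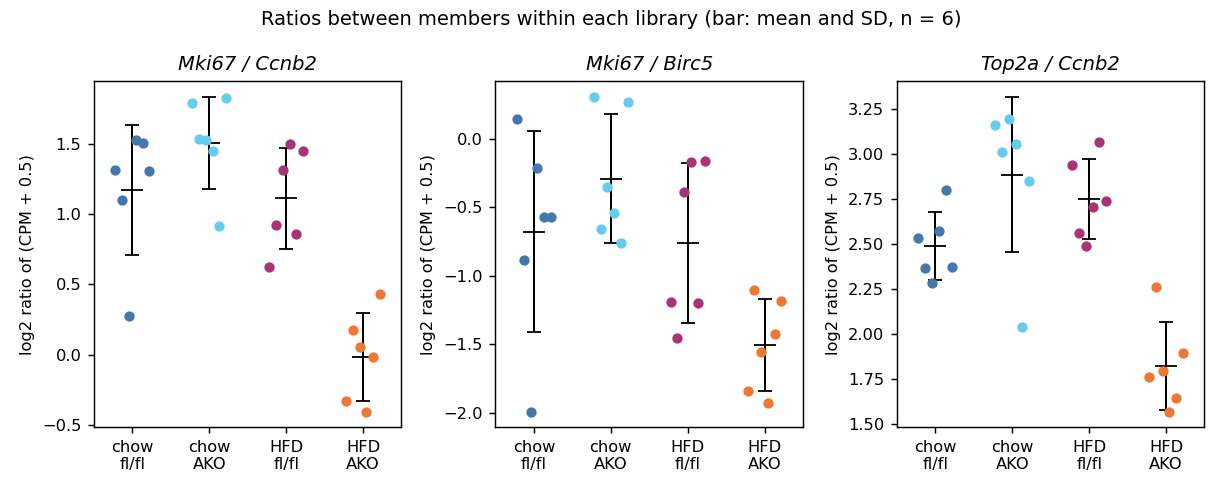
Log2 ratios of Mki67 to Ccnb2, Mki67 to Birc5 and Top2a to Ccnb2 (with 0.5 CPM added to each gene), 1 point per library in 4 groups of 6 mice, with bars for the mean and SD. The HFD-fed Lama4 AKO points lie at a mean of -0.01 for Mki67 to Ccnb2, against 1.505 in chow-fed Lama4 AKO mice.

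A wider set of cell-cycle genes was tested in the same fit. Of 42 DNA replication genes tested (minichromosome maintenance proteins, polymerases and their loaders), 0 were called in any of the 4 comparisons of 2 groups or in the interaction by edgeR, with 13 at an unadjusted p under 0.05 in HFD-fed against chow-fed Lama4 AKO mice, 2 in the same comparison of Lama4 fl/fl mice, 4 between genotypes on the HFD, 0 on chow and 6 in the interaction. The shares of all genes at an unadjusted p under 0.05 in these comparisons were 39.8%, 9.01%, 14.8%, 5.85% and 15.6%. In Lama4 AKO mice 32 of them were higher on the HFD and 10 lower, with a median log2 fold change of 0.39. In the diet comparison averaged over genotypes 1 of the 42 was called, beside 2.25% of all genes. This gene, Pola1, the catalytic subunit of DNA polymerase alpha, was lower on the HFD, with a log2 fold change of -0.66 (SE 0.16, adjusted p = 0.0232). Pola1 had group medians of 21.5 CPM in chow-fed Lama4 fl/fl, 19.6 CPM in chow-fed Lama4 AKO, 12.6 CPM in HFD-fed Lama4 fl/fl and 11.1 CPM in HFD-fed Lama4 AKO mice. Gins3, of the helicase that Cdc45 belongs to, was at -0.58 (SE 0.18, adjusted p = 0.0398) and did not meet the nominal criterion. Of the 42 genes, 29 were higher and 13 lower in the averaged diet comparison, with a median of 0.09.

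Of 69 mitosis genes, 65 were in the table and 64 tested, and 0 were called between 2 groups or in the interaction by edgeR, with 9 at an unadjusted p under 0.05 between diets in Lama4 AKO mice, 2 in Lama4 fl/fl mice, 1 between genotypes on the HFD, 0 on chow and 2 in the interaction, beside the same shares of all genes. Hmgb2, a chromatin protein, was the 1 gene of 64 called in the averaged diet comparison, where 2.25% of all genes were, at a log2 fold change of -0.89 (SE 0.24, adjusted p = 0.0286). Its medians were 18.0 and 14.2 CPM in chow-fed and 8.51 and 6.23 CPM in HFD-fed mice (Lama4 fl/fl first). Nusap1, which binds spindle microtubules, was at -0.87 (SE 0.23, adjusted p = 0.0293) and just missed the nominal criterion. Of the 64 genes, 32 were higher and 32 lower in the averaged diet comparison, with a median of -0.001. The medians of the mitosis list were 0.20 in Lama4 AKO and -0.24 in Lama4 fl/fl mice between diets, beside 0.26 and -0.22 for the 9 members, which are not part of it.

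Among genes that regulate the cycle, calls were made between diets in Lama4 AKO mice, where 4.12% of all genes tested were called. Of 24 transcription factors and repressors tested, 1 was called higher and 2 lower there. E2f4, a repressive E2F of the DREAM complex, was called higher at a log2 fold change of 0.92 (SE 0.20, adjusted p = 0.0127). Its libraries were at 11.7 to 20.96 CPM on chow and 22.4 to 35.0 CPM on the HFD, without overlap (6.86% of all genes). E2f3, an activating E2F, was called lower at -0.60 (SE 0.15, adjusted p = 0.0179), and Nfyb, a subunit of NF-Y, at -0.61 (SE 0.16, adjusted p = 0.0200). Of 9 G1 cyclins and kinases, Ccnd2 (cyclin D2) was called lower at -1.24 (SE 0.29, adjusted p = 0.0153), with medians of 1524 and 505 CPM, and Ccnh, part of the kinase that activates the others, was at -0.37 (adjusted p = 0.0848) and was not called. No gene of these 2 lists was called in the other 3 comparisons of 2 groups, the interaction or the averaged diet comparison by edgeR, with 2 to 7 of the 24 and 0 to 3 of the 9 at an unadjusted p under 0.05, where 5.85% to 35.5% of all genes were.

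Of 16 inhibitors of cyclin-dependent kinases and other anti-proliferative genes tested, 3 were called lower on the HFD in Lama4 AKO mice and 0 higher. In that comparison 4.12% of all genes tested were called. Cdkn1a, the gene of the inhibitor p21, was at 177, 328 and 464 CPM (lowest, median, highest) in chow-fed Lama4 AKO and 132, 149 and 188 CPM in HFD-fed Lama4 AKO mice, so that the groups overlapped between 177 and 188 CPM. Its log2 fold change was -1.04 (SE 0.24, adjusted p = 0.0153), and -0.91 without chow-fed Lama4 AKO mouse 3, which no longer met the nominal criterion. Cdkn2c, the gene of the inhibitor p18, was at -1.48 (SE 0.37, adjusted p = 0.0180), with medians of 83.7 and 33.0 CPM. Btg1, an anti-proliferative gene, was at -2.10 (SE 0.44, adjusted p = 0.0124), with medians of 31.9 and 7.91 CPM. It was also called in the averaged diet comparison at -1.29 (adjusted p = 0.0229), where 2.25% of all genes were. Gadd45a, a gene induced by growth arrest and DNA damage, was at 0.63 between diets in Lama4 AKO mice (adjusted p = 0.0233) and did not meet the nominal criterion. In the interaction, Cdkn1a was at -1.24 (SE 0.34, adjusted p = 0.229) and Cdkn2c at -1.71 (SE 0.52, adjusted p = 0.235), and neither met the criterion. In Lama4 fl/fl mice Cdkn1a had medians of 196 CPM on chow and 212 CPM on the HFD. Between genotypes on chow it was on the higher side in the libraries labelled AKO, at 0.66 (SE 0.24, edgeR adjusted p = 0.772), and was not called.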

How the data were processed

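Raw counts per gene and library, made by the authors with the Lexogen QuantSeq pipeline on GRCm38, were deposited without normalization. A second deposited table holds a normalized signal, the counts divided by 1 size factor a library, and was used for gene symbols and positions only. Both hold 16730 genes. The main test was edgeR's quasi-likelihood F test (edgeR 4.0.16, R 4.3.3) with TMM factors, fitted to all 24 libraries with a mean for each group, on the 15020 genes that reached 1 CPM in 3 or more libraries. Adjusted p-values are Benjamini-Hochberg values over these genes. log2 CPM used a prior count of 2. The alternatives used limma 3.58.1 and DESeq2 1.42.0, other filters and scalings, fits without single libraries or the 5 libraries, and the replicate number as a block. limma-voom without the 5 libraries and leaving out single libraries in the correlations were chosen after seeing the data. The scripts were tested on simulated data. The members and all gene lists were chosen with earlier results of these data known. Genes named besides the members are those of 5 cell-cycle lists that were called (otherwise the 2 with the lowest p in the averaged diet comparison), the 10 most alike in their variation, and Lama4. Cell types were followed with 12 marker lists. The 60 pairs of libraries within groups differed by more than counting error (chi-square of at least 5.72 per degree of freedom). Library totals of 5579590 to 18764516 counts set the precision, and floors of 3 counts cover counting error only. P-values measure the spread between mice.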

Additional observations from a re-analysis of the deposited data

Results flagged for a closer look

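In the chow-fed Lama4 fl/fl group, 7 of the 9 members had 1 library, mouse 1, far below the other 5. Its gap to the next library, as a share of the range of the group in log2 CPM, was 0.893 for Top2a, 0.866 for Cdk1, 0.865 for Ccna2, 0.863 for Ccnb2, 0.853 for Birc5, 0.852 for Prc1 and 0.803 for Tpx2. Each exceeds Dixon's 95% critical value for 6 samples. These were the 7 exceptions among 36 combinations of member and group, chance alone gives about 1 in 20, and the 7 share 1 library and so are not separate observations. The same library had 38.6 CPM of the members, the lowest macrophage marker sum (1303 CPM) and the highest adipocyte marker sum (47743 CPM) of all 24, and the part of these in its low values was not tested.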

How the results depend on the processing

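In all 6 comparisons 0 of 9 members were called under every alternative run but voom with sample quality weights, which called 1 (Ccnb2) between diets in Lama4 AKO mice and 1 (Ccnb2) in the interaction. The number of all genes called moved far more: between diets in Lama4 fl/fl mice it was 26, with 0 at an adjusted p of at most 0.05 and 1842 with limma-voom without the 5 libraries, and between diets in Lama4 AKO mice it was 619, with a range of 457 to 3594 and of 299 to 1169 when single libraries were left out. The median correlation between members was 0.88, and 0.72 to 0.91 with single libraries left out, the lowest value without chow-fed Lama4 fl/fl mouse 1. The replicate numbers did not pair the mice: correlations of same-numbered libraries lay between -0.48 and 0.71, with 10 of 24 over 0.1 and 6 of 24 best with their own number. With the replicate number as a block, 0 members were called in each comparison, and Ccnb2 between diets in Lama4 AKO mice was at 0.94 (adjusted p = 0.107). With 6 mice a group the 95% interval of Ccnb2 in that comparison ran from 1.04- to 3.17-fold, and Ccna2 and Cdc45 rested on as few as 7 and 26 counts in a library.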
